A study of Rattus with 6 samples.

Results

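Cadherins and protocadherins were examined in rat BMSC, mesenchymal stem cells taken here as those of bone marrow (the stromal progenitors of osteoblasts and adipocytes), with and without dexamethasone, a synthetic glucocorticoid. Members were chosen by symbol as every gene whose name begins with Cdh and a digit or with Pcdh, which gave 71 of the 30211 genes in the table. They comprised 23 cadherins and 48 protocadherins. The groups were 3 libraries from wild-type cells given 100 uM dexamethasone for 4 days and 3 libraries from wild-type control cells collected on the same day. The labels do not say whether the controls received vehicle, or whether the replicates were separate cultures or animals. The p-values therefore measure only the spread between these libraries, which may be technical. RNA was sequenced, and the deposited values were raw read counts per gene.

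Cadherins are membrane proteins whose outer repeats bind calcium and hold neighbouring cells together, mostly by binding the same cadherin on the next cell. The tails of the classical cadherins, of type I and type II, bind p120 and beta catenins, and alpha catenin links beta catenin to actin. Protocadherins lack that catenin link. The delta protocadherins stand alone in the genome, while the alpha, beta and gamma protocadherins lie in one cluster. In the alpha and gamma sets, many variable exons, each with its own promoter, are spliced to shared constant exons, and the beta genes are single exons. N-cadherin (Cdh2) and osteoblast cadherin (Cdh11) are the cadherins best known from marrow stroma and bone-forming cells.

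Library totals ran from 34835072 to 41676315 counts. The 3 established glucocorticoid targets checked were higher in every dexamethasone library than in every control, namely Fkbp5 (log2 fold change 4.30), Tsc22d3 (2.88) and Per1 (1.63), so the counts follow the groups in the sample titles, although the treatment tag reads DEX for all 6 samples. Of 11 markers of marrow stroma, 10 were in the table and all 10 were tested, of which 4 were higher and 5 lower with dexamethasone. Over all tested genes, 32.3% were higher and 31.7% lower. The 10 stromal markers summed to 2539 to 2564 CPM with dexamethasone and 3729 to 3781 CPM in controls. Prrx1, a mesenchymal transcription factor, was lower, at 75.6 ± 2.51 CPM with dexamethasone and 727 ± 19.2 CPM in controls (log2 -3.27; CPM, reads scaled to a common library total and by TMM; SD, n = 3 each). Pdgfrb, Col1a1, Vcam1 and Eng were lower too (log2 -2.17, -0.78, -0.45 and -0.20). Lepr was higher at a low level (log2 1.79, 0.913 CPM with dexamethasone and 0.262 CPM in controls), as were Pdgfra, Nt5e and Cxcl12 (log2 0.69, 0.60 and 0.07). Thy1, at 134 ± 0.0494 CPM with dexamethasone and 133 ± 1.93 CPM in controls, was the one stromal marker not called. The 10 endothelial markers in the table summed to 5.19 to 5.87 CPM with dexamethasone and 7.32 to 7.99 CPM in controls, with Cldn5, Emcn and Robo4 at 0 counts in every library. Of the endothelial sum, Egfl7 held 3.94 ± 0.593 CPM with dexamethasone and 5.94 ± 0.437 CPM in controls. Of the 3 endothelial markers tested, 2 were lower and Tek was higher (log2 0.81). The 10 macrophage markers summed to 1.33 to 1.92 CPM with dexamethasone and 4.55 to 5.55 CPM in controls, with Tyrobp, Laptm5 and Adgre1 at 0. The 9 epithelial markers summed to 4.14 to 5.13 CPM with dexamethasone and 10.2 to 12.1 CPM in controls, and none was at 0 in all libraries. Of the epithelial sum, Cldn4 held 0.368 ± 0.245 CPM with dexamethasone and 8.45 ± 0.718 CPM in controls. Of the 2 epithelial markers tested, Cldn4 was lower (log2 -4.55) and the other was higher (log2 0.91), so the fall of the sum was that of Cldn4. The 9 Schwann and neural markers summed to 1.82 to 2.91 CPM with dexamethasone and 2.84 to 4.04 CPM in controls, with none at 0 in all libraries. The 7 markers of smooth muscle and pericytes summed to 232 to 237 CPM with dexamethasone and 270 to 279 CPM in controls, with Rgs5 at 0. Of that sum, Des held 172 ± 2.97 CPM with dexamethasone and 201 ± 9.26 CPM in controls. Of the 6 smooth muscle and pericyte markers tested, 4 were lower and 1 was higher (log2 1.82). The part of these markers in the results below was not tested.

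Of the 71 members, 46 had enough reads to be tested. With dexamethasone, 7 were higher and 18 lower, and 21 were not called. Calls were made at 0.05 on p-values from the quasi-likelihood test of edgeR, adjusted by the Benjamini-Hochberg method across the 14111 genes tested. Calls thus made up 54.3% of the tested members, against 64.0% of all tested genes. Higher calls made up 15.2% of tested members against 32.3% of all tested genes, and lower calls 39.1% against 31.7%. The median log2 fold change of the 46 was -0.30, against -0.00 over all tested genes. The 2 groups of libraries did not overlap for 27 tested members, 6 with dexamethasone above and 21 with it below. Over all tested genes, 66.9% did not overlap, 33.8% with dexamethasone above and 33.1% with it below. Many members were scarce: 24 of the 46 averaged under 2 CPM in both groups, and 6 of those 24 were called. The filter was passed in both groups by 39, through the dexamethasone libraries alone by 4 (Cdh17, Cdh18, Pcdhb5 and Pcdhga4), through the control libraries alone by 1 (Pcdhb8) and in neither group alone by 2 (Pcdhb2 and Pcdhgb4). These counts describe the members that passed and not the whole family.

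**Figure D1:**
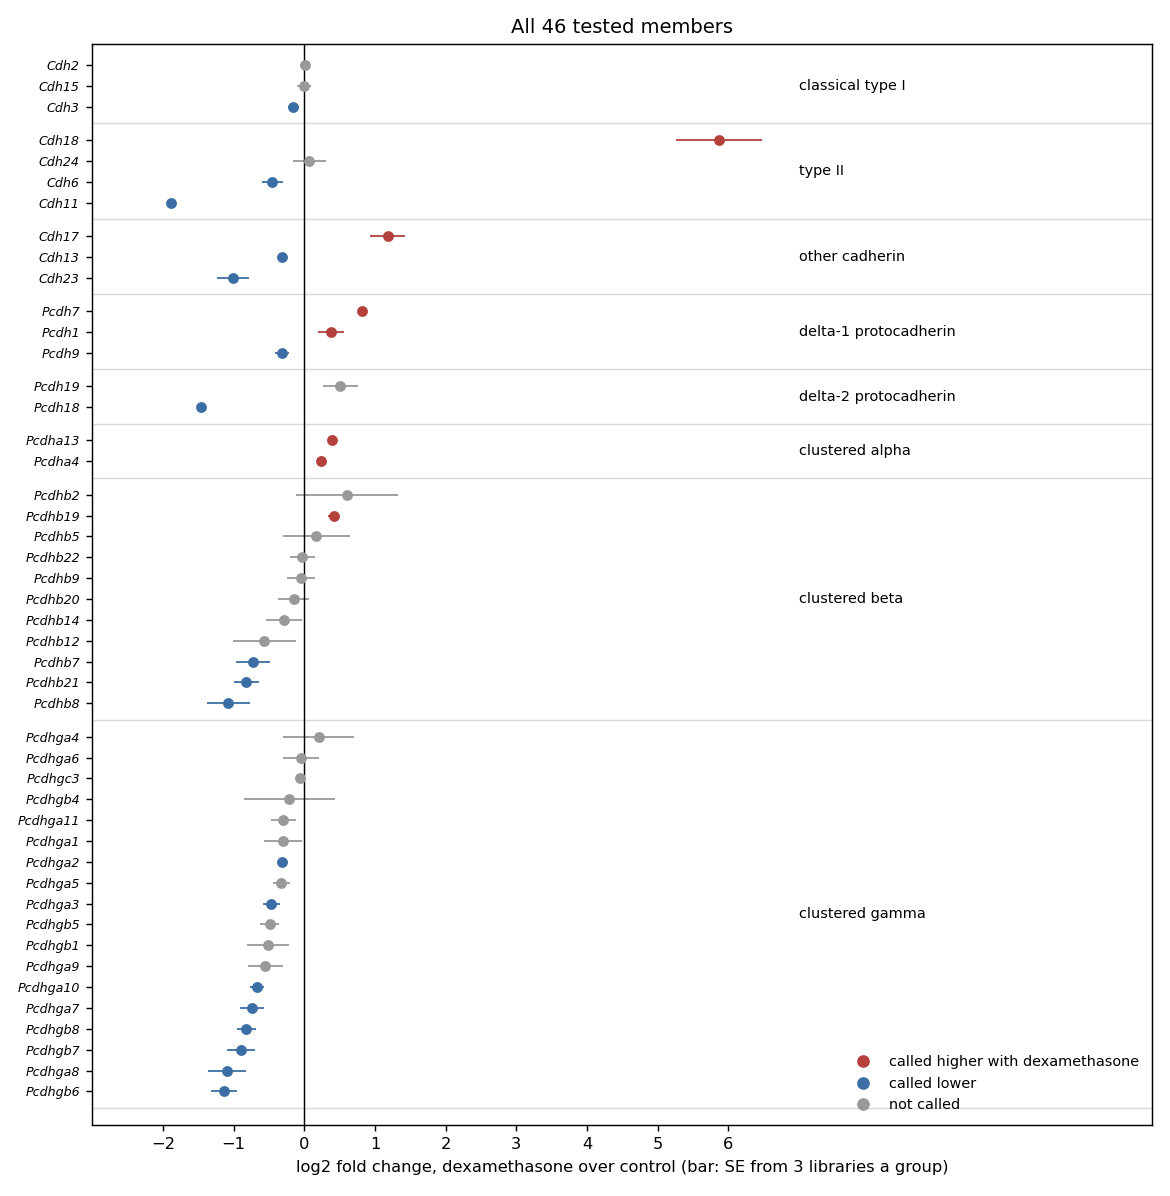
Log2 fold change (x axis, dexamethasone over control) of the 46 tested cadherin and protocadherin genes, grouped by class down the page, with bars for the SE from 3 libraries a group. Cdh18 stands far to the right at 5.87, Cdh11 and Pcdh18 lie at -1.89 and -1.46, and 17 of the 18 gamma protocadherins lie left of 0.

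Among the classical type I cadherins, the largest log2 fold change was that of Cdh3, at -0.16. Cdh2, which encodes N-cadherin, the main cadherin of mesenchymal cells (chromosome 18, 8146971 to 8360684), had 9.90, 10.8 and 10.5 CPM in the dexamethasone libraries, against 11, 10.3 and 9.70 CPM in the controls. The groups overlapped, with a log2 fold change of 0.01 ± 0.07 (SE) and an adjusted p of 0.951. Cdh3, which encodes P-cadherin of epithelia, was the most abundant of the class, at 32.9, 28.1 and 29.1 CPM with dexamethasone and 35.2, 32.7 and 32.8 CPM in controls. It was called lower (log2 -0.16 ± 0.08, adjusted p = 0.0156), but dexamethasone replicate 1 lay above 2 of the 3 controls. The call of Cdh3 was lost without dexamethasone replicate 2 or 3 or control replicate 1 (adjusted p = 0.132, 0.0829 and 0.0888), with library size alone (0.0696) and with DESeq2 (0.0509). Cdh15, the muscle cadherin, averaged 1.33 CPM in both groups and was not called (adjusted p = 0.980). Cdh1, which encodes the epithelial E-cadherin, was near the floor, with 0.0474, 0.113 and 0.0985 CPM with dexamethasone and 0.0519, 0.152 and 0.050 CPM in controls, or 10 counts in each group. It was not tested, and Cdh4, a retinal and neural cadherin, had 0 counts in all 6 libraries. A count of 0 allows up to 0.142 to 0.170 CPM by library, taking 6 counts as the floor.

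Among the 46 tested members, the lowest and highest log2 fold changes were those of type II cadherins. Of 13 type II genes, 4 were tested. Cdh11, which encodes osteoblast cadherin (chromosome 19, 2393059 to 2551245), had 72.9, 73.6 and 75.3 CPM in the dexamethasone libraries, against 280, 274 and 265 CPM in the controls. The groups were far apart, with a log2 fold change of -1.89 ± 0.03 (SE), or 3.69-fold lower, and an adjusted p of 1.2e-39. Cdh18, a cadherin known mainly from the nervous system (chromosome 2, 74360622 to 74693341), had 4.64, 5.22 and 5.54 CPM with dexamethasone, against 0, 0.152 and 0.100 CPM in controls. Every dexamethasone library lay above every control, and 2 of the 3 controls held only 6 and 4 counts. The 605 and 10 counts of the groups gave a ratio of 60.6 (exact 95% binomial interval 25.7 to 188, on read pairs), and the fitted log2 fold change was 5.87 ± 0.61 (adjusted p = 7.2e-21). That SE was taken with a prior count of 2. Cdh18 passed the filter through the dexamethasone libraries alone, so it was tested only because of the group in which it is high.

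Cdh6, a cadherin of kidney and of embryonic mesenchyme, had 3.44, 2.95 and 2.59 CPM with dexamethasone and 4.04, 4.59 and 3.70 CPM in controls. Its libraries did not overlap and it was called lower (log2 -0.46 ± 0.15, adjusted p = 0.00732). The call of Cdh6 was lost without dexamethasone replicate 3 (adjusted p = 0.0590) or control replicate 2 (0.0551). Cdh24 averaged 4.5 ± 0.752 CPM with dexamethasone and 4.30 ± 0.997 CPM in controls and was not called (adjusted p = 0.701). Cdh5, which encodes the endothelial VE-cadherin, had 0, 0.170 and 0.271 CPM with dexamethasone and 0.104, 0.0507 and 0.050 CPM in controls, from 17 and 8 counts, and was not tested. Cdh8 and Cdh19 held 2 counts each, all in controls, and the other 6 type II genes (Cdh7, Cdh9, Cdh10, Cdh12, Cdh20 and Cdh22) had none. In bulk RNA such as this, fewer cells of a type and less RNA per cell cannot be told apart.

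The other cadherins, which lack the classical catenin-binding tail, moved both ways. Cdh13, which encodes T-cadherin, a lipid-anchored cadherin that binds adiponectin (chromosome 19, 50848736 to 51972103), had 46.5, 43.7 and 45 CPM with dexamethasone and 52.8, 59.1 and 56.2 CPM in controls. All dexamethasone libraries lay below all controls, by a modest amount (log2 -0.31 ± 0.05, adjusted p = 8.1e-08). Cdh23, part of the tip link of sensory hair cells, fell at a low level, to 0.755 ± 0.148 CPM with dexamethasone against 1.52 ± 0.316 CPM in controls (log2 -1.01 ± 0.23, adjusted p = 9.3e-04). Cdh17, a cadherin of the intestine, was called higher from very few reads, 55 counts with dexamethasone and 24 in controls (ratio 2.33, interval 1.15 to 5.04, adjusted p = 0.0217). The call of Cdh17 was lost without dexamethasone replicate 1 or 3 or control replicate 1 or 2 (adjusted p = 0.0939, 0.0629, 0.0547 and 0.0933) and with DESeq2 (0.0923). Cdh17, like Cdh18, passed the filter through the dexamethasone libraries alone. Cdh16 and Cdh26 had no counts.

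**Figure D2:**
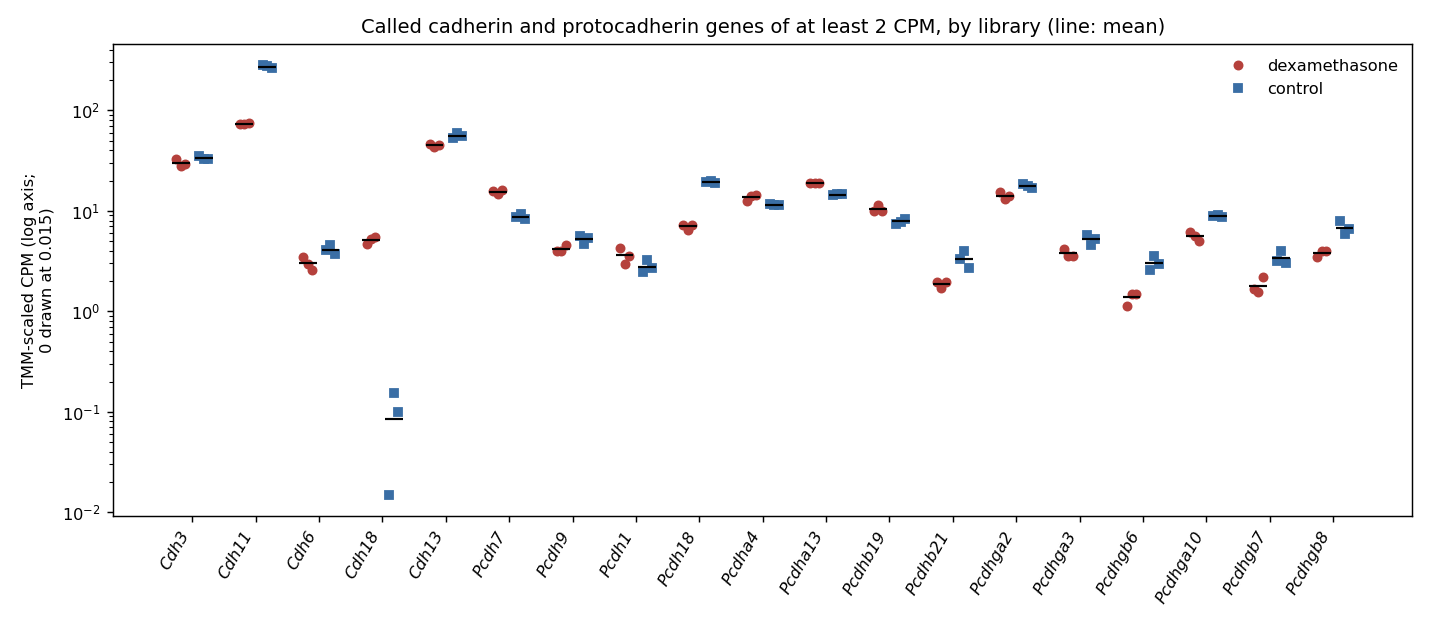
TMM-scaled CPM on a log axis in each library (red circles, dexamethasone; blue squares, control; lines, group means) of the 19 called genes that averaged at least 2 CPM in either group. Cdh11 lies near 74 CPM with dexamethasone and 273 CPM in controls, Cdh18 is near the bottom of the axis in controls, and Cdh3 and Pcdh1 are the 2 genes whose groups overlap.

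The delta protocadherins did not move as a class. Pcdh7, a delta-1 protocadherin (chromosome 14, 55072200 to 55081551), had 15.8, 14.5 and 16 CPM with dexamethasone, against 8.71, 9.30 and 8.32 CPM in controls. Its groups did not overlap, and it rose 1.76-fold (log2 0.82 ± 0.06, adjusted p = 1.0e-11). Pcdh18, a delta-2 protocadherin (chromosome 2, 138819960 to 138833933), had 7.30, 6.47 and 7.29 CPM with dexamethasone, against 19.2, 19.9 and 18.9 CPM in controls. It fell 2.75-fold with no overlap between the groups (log2 -1.46 ± 0.06, adjusted p = 4.2e-20).

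The other delta protocadherins changed less. Pcdh9, of the delta-1 set and expressed in brain, had 4.00, 4.00 and 4.53 CPM with dexamethasone and 5.60, 4.66 and 5.37 CPM in controls (log2 -0.32 ± 0.10, adjusted p = 0.0276). The groups did not overlap, but the call of Pcdh9 was lost without dexamethasone replicate 1 or 2 or control replicate 1 or 3 (adjusted p = 0.0896, 0.0869, 0.111 and 0.0736), with library size alone (0.0537) and with DESeq2 (0.0872). Pcdh1, of the same set and present in airway epithelium, had 4.26, 2.98 and 3.55 CPM with dexamethasone and 2.44, 3.24 and 2.67 CPM in controls. The groups overlapped, and its call as higher (log2 0.37 ± 0.19, adjusted p = 0.0408) was lost without dexamethasone replicate 1 or 3 or control replicate 1 or 3 (0.265, 0.0619, 0.158 and 0.0987), with DESeq2 (0.128) and with the replicate number as a block (0.0533). Pcdh19, a delta-2 gene in which mutations cause epilepsy in humans, averaged 1.83 ± 0.471 CPM with dexamethasone and 1.28 ± 0.175 CPM in controls and was just short of a call (log2 0.51 ± 0.25, adjusted p = 0.0532). Pcdh19 was called without dexamethasone replicate 1 (adjusted p = 0.00920) or control replicate 3 (0.0385), with library size alone (0.0388), with a filter at 1 CPM (0.0456) and with counts halved to read pairs (0.0497). Pcdh8, Pcdh10 and Pcdh17 had no counts. Pcdh12, Pcdh15 and Pcdh20, the remaining non-clustered genes, had 12, 16 and 4 counts with dexamethasone and 14, 2 and 2 in controls, too few to test.

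The clustered protocadherins, 37 members, lie along chromosome 18. Both alpha entries were higher with dexamethasone, 1 of 11 tested beta genes was higher and 3 were lower, and of 18 gamma entries 8 were lower and none higher. Over all tested genes 32.3% were higher and 31.7% lower, and the difference between the sets was not tested. Their shared sequence limits what these counts mean. Variable exons of one set resemble each other, and the sources used here do not state how reads that map to several genes were counted, so values of single beta and gamma genes are uncertain. The table also pools exons unevenly. Pcdha13 lists 14 distinct intervals over 27070 bases, so its value belongs to the alpha set and not to a single variable exon. Pcdha4 lists 2 intervals of at least 2000 bases each, 4755 bases in all, so its value may also hold more than 1 variable exon. Pcdhgc3 lists 10 distinct intervals over 5288 bases, including the last intervals of the gamma cluster, so its value may hold reads of exons shared by the gamma set. By contrast, 29 beta and gamma members consist of 1 interval of 2319 to 3376 bases each. No exon of a member overlapped an exon of another gene in the table.

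**Figure D3:**
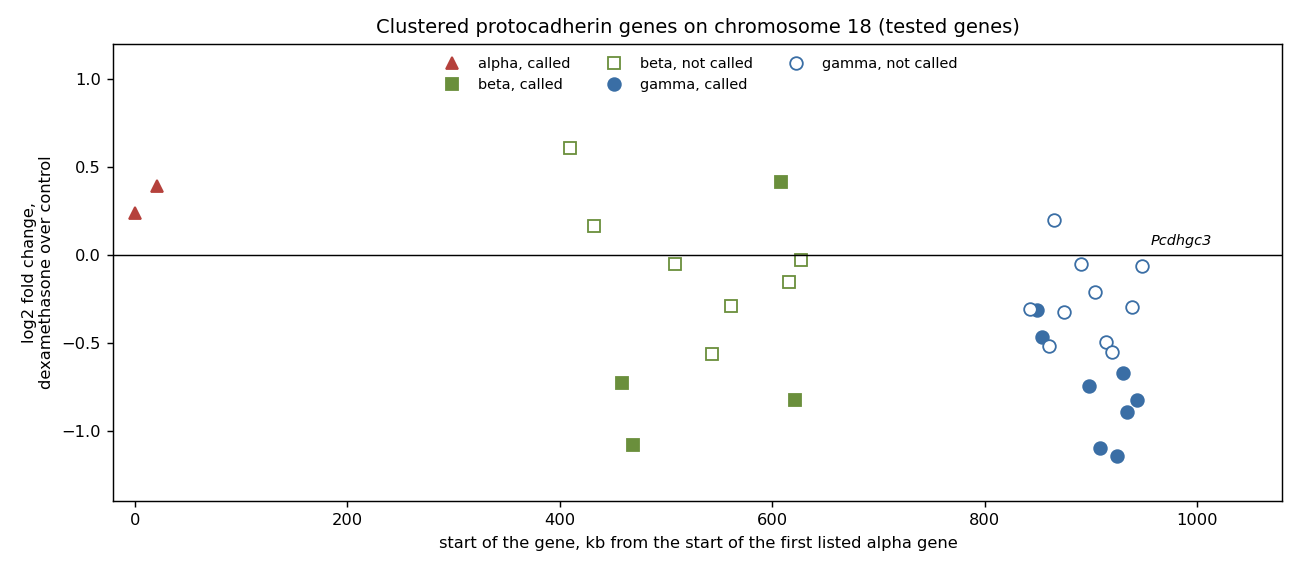
Log2 fold change (y axis, dexamethasone over control) of the tested clustered protocadherins against the start of each gene in kb from the first listed alpha gene, with filled symbols for called genes. The 2 alpha entries (triangles) lie above 0, the beta genes (squares) on both sides, and all gamma genes (circles) except Pcdhga4 lie below 0, with Pcdhgc3 close to it.

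The alpha entries rose modestly and without overlap between the groups. Pcdha4 (chromosome 18, 29966245 to 29975192) had 12.7, 13.9 and 14.2 CPM with dexamethasone, against 11.7, 11.4 and 11.4 CPM in controls (log2 0.24 ± 0.05, adjusted p = 0.00894). Pcdha13 (29987206 to 30215897) had 19.0, 18.9 and 19.1 CPM with dexamethasone, against 14.2, 14.6 and 14.6 CPM in controls (log2 0.39 ± 0.01, adjusted p = 3.7e-06). That SE reflects only the spread between libraries. It is smaller than counting error on 2245 and 1708 counts would give, so it overstates the precision. Among the beta genes, which encode neuronal adhesion proteins, Pcdhb19 was by far the most counted, at 10, 11.4 and 10 CPM with dexamethasone and 7.44, 7.70 and 8.37 CPM in controls. It rose with no overlap (log2 0.41 ± 0.08, adjusted p = 1.6e-04). Pcdhb21, further along the set, was lower, with 1.97, 1.70 and 1.97 CPM with dexamethasone and 3.34, 4.00 and 2.67 CPM in controls (log2 -0.82 ± 0.18, adjusted p = 7.8e-05).

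The 2 other beta calls, Pcdhb7 and Pcdhb8 (log2 -0.73 and -1.08), were of genes under 1 CPM. Pcdhb8 passed the filter through the control libraries alone. The call of Pcdhb7 (adjusted p = 0.0440) was lost without any of the 3 dexamethasone replicates (adjusted p = 0.0641 to 0.114) or without control replicate 1 or 2 (0.0706 and 0.255), and with the replicate number as a block (0.0640), limma-voom (0.0566), DESeq2 (0.119), library size alone (0.0567) and no filter on low counts (0.0537). That of Pcdhb8 (adjusted p = 0.0140) was lost without dexamethasone replicate 1 or 3 (0.0554 and 0.0846), without control replicate 1 or 2 (0.0581 and 0.0521) and with DESeq2 (0.0608). The 7 tested beta genes not called (Pcdhb2, Pcdhb5, Pcdhb9, Pcdhb12, Pcdhb14, Pcdhb20 and Pcdhb22), all under 2 CPM, had log2 fold changes from -0.57 (Pcdhb12) to 0.61 (Pcdhb2). Pcdhb12 was called without dexamethasone replicate 2 (log2 -1.07, adjusted p = 0.0179). The 6 untested beta members held few counts, namely 0, 12, 18, 9, 32 and 11 with dexamethasone and 2, 14, 32, 14, 23 and 10 in controls for Pcdhb1, Pcdhb3, Pcdhb4, Pcdhb6, Pcdhb10 and Pcdhb11. Summed over all 17 beta members, the level was 19.5 ± 0.526 CPM with dexamethasone and 19.7 ± 1.07 CPM in controls, a difference smaller than the spread between libraries.

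The gamma variable exons were lower with dexamethasone wherever they were called. Of the 17 entries other than Pcdhgc3, 8 were called lower (47.1%, against 31.7% of all tested genes) and 9 were not called. In 11 of the 17 every dexamethasone library lay below every control, as in 33.1% of all tested genes, and the median log2 fold change of the 17 was -0.49. Pcdhga2, the most counted of them, had 15.3, 13.2 and 14.1 CPM with dexamethasone, against 18.6, 17.7 and 16.7 CPM in controls (log2 -0.31 ± 0.08, adjusted p = 3.2e-04). Pcdhga10 had 6.21, 5.64 and 4.95 CPM with dexamethasone, against 8.97, 9.07 and 8.77 CPM in controls (log2 -0.67 ± 0.09, adjusted p = 3.5e-07). In both genes the groups were separate, though the difference was under 2-fold.

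Of the 6 gamma B genes, 3 were called, all lower (50%). Over all tested genes, 31.7% were called lower and 64.0% in either direction. Pcdhgb6 had 1.14, 1.5 and 1.48 CPM with dexamethasone, against 2.57, 3.57 and 2.92 CPM in controls (log2 -1.14 ± 0.19, adjusted p = 1.6e-06). Pcdhgb7 had 1.66, 1.56 and 2.19 CPM with dexamethasone, against 3.14, 3.98 and 3.0 CPM in controls (log2 -0.90 ± 0.19, adjusted p = 2.6e-05). Pcdhgb8 had 3.48, 4.00 and 4.02 CPM with dexamethasone, against 7.86, 5.90 and 6.57 CPM in controls (log2 -0.82 ± 0.14, adjusted p = 2.3e-07). No dexamethasone library reached a control in these 3 genes, which lie among the last gamma genes before Pcdhgc3. Pcdhga3 had 4.17, 3.57 and 3.55 CPM with dexamethasone and 5.76, 4.59 and 5.30 CPM in controls (log2 -0.47 ± 0.12, adjusted p = 0.00202). Pcdhga7 and Pcdhga8, both under 2 CPM, completed the calls (log2 -0.74 and -1.10). The call of Pcdhga7 (adjusted p = 0.0163) was lost without dexamethasone replicate 2 (0.0526) or control replicate 1 (0.108) and with DESeq2 (0.0565). Of the 9 not called (Pcdhga1, Pcdhga4, Pcdhga5, Pcdhga6, Pcdhga9, Pcdhga11, Pcdhgb1, Pcdhgb4 and Pcdhgb5), all under 2 CPM, Pcdhga4 was the only one with a positive log2 fold change (0.20 ± 0.51). Pcdhgb1 was called without dexamethasone replicate 2 (log2 -0.83, adjusted p = 0.0432).

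Pcdhgc3, the gamma entry with the last intervals of the cluster (30913842 to 30969361), had 185, 178 and 183 CPM with dexamethasone, against 195, 187 and 187 CPM in controls. The dexamethasone libraries were all slightly below the controls, and the gene was not called (log2 -0.06 ± 0.03, adjusted p = 0.0730), though it was without control replicate 3 (0.0494). The 17 other gamma entries summed to 39.7, 37.2 and 38.2 CPM with dexamethasone and 57.8, 55.3 and 53.6 CPM in controls. Within each library, that sum was 21.5%, 20.9% and 20.9% of the Pcdhgc3 value with dexamethasone and 29.6%, 29.5% and 28.6% in controls, a ratio that does not depend on the scaling between libraries. The summed alpha level was 0.799, 0.883 and 0.872 of the summed gamma variable level with dexamethasone, and 0.449, 0.470 and 0.485 of it in controls. Both ratios were fully separate between the groups, and neither was tested, since they were formed over members. The alpha sum includes Pcdha13, which pools the alpha set, while the gamma variable sum leaves out Pcdhgc3, so the alpha ratio sets unlike measures side by side. The Pcdhgc3 value may itself hold reads of exons shared by the gamma set.

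Levels of different genes were compared per kilobase of exon (FPKM, the TMM-scaled CPM divided by the table's gene length). With dexamethasone the order was led by Pcdhgc3 at 34.4 ± 0.696 FPKM, then Cdh11 at 14.3 ± 0.236, Cdh13 at 11.2 ± 0.351, Cdh3 at 8.21 ± 0.687 and Pcdhga2 at 5.84 ± 0.437 (SD, n = 3). In controls Cdh11 came first at 52.8 ± 1.46 FPKM, then Pcdhgc3 at 35.9 ± 0.845, Cdh13 at 13.9 ± 0.780, Cdh3 at 9.17 ± 0.382 and Pcdhga2 at 7.28 ± 0.386. Each step in these 2 orders was larger than the spread between libraries, and Cdh11 and Pcdhgc3 exchanged the first place. The Pcdhgc3 entry may hold reads of exons shared by the gamma set, so its place may not be that of a single gene. Further down, Pcdhb19 and Pcdh7 could not be ordered with dexamethasone (4.35 ± 0.324 and 4.29 ± 0.215 FPKM), nor could Pcdh18 and Pcdhga10 in controls (3.74 ± 0.101 and 3.70 ± 0.0634 FPKM). Cdh11 made up 12.9% of the summed FPKM of all members with dexamethasone and 32.9% in controls. The level of Cdh11 was 7.36, 6.79 and 7.17 times that of Cdh2 in CPM with dexamethasone and 25.4, 26.5 and 27.3 times in controls. At least 1 FPKM was reached by 17 members with dexamethasone and 19 in controls. Pcdha13, at 19.0 CPM with dexamethasone and 14.5 CPM in controls, had only 0.702 and 0.534 FPKM. Its level was divided by the 27070 bases of its pooled intervals, so it cannot be placed against single genes.

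**Figure D4:**
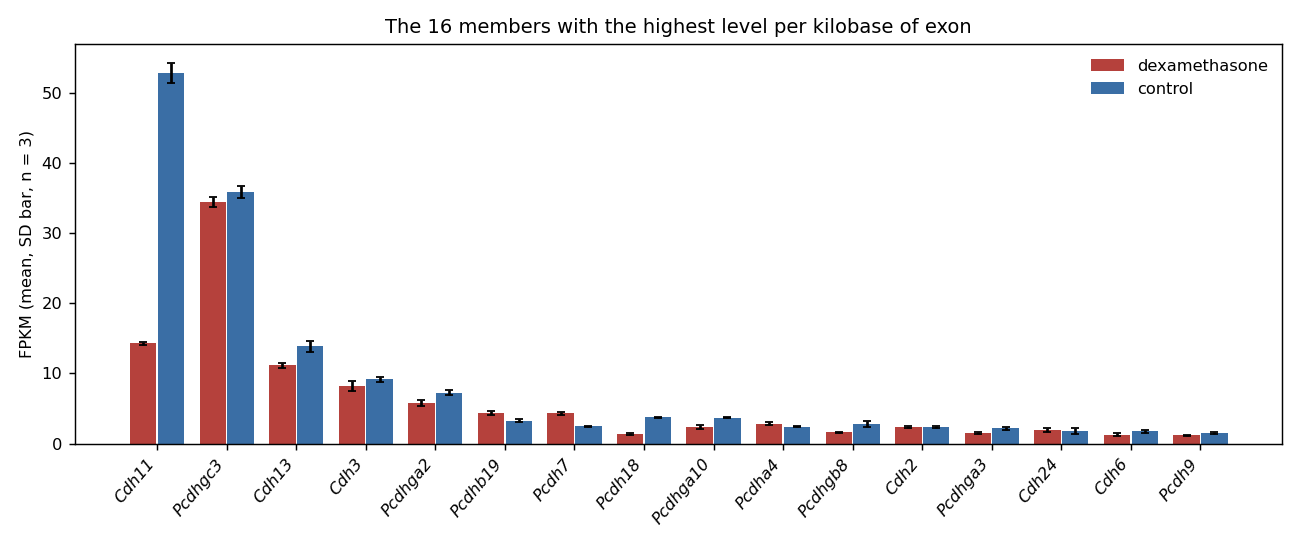
Mean FPKM (bars from 0, SD over 3 libraries; red, dexamethasone; blue, control) of the 16 members with the highest level per kilobase of exon. Cdh11 is at 14.3 FPKM with dexamethasone and 52.8 FPKM in controls, and Pcdhgc3 is close to 35 FPKM in both groups.

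Genes that work with cadherins were taken from 5 lists written from general knowledge. Of 22 catenins and junction partners, 19 were tested, of which 8 were higher and 7 lower, with a median log2 fold change of 0.10. Ptprf, a receptor phosphatase found with cadherins and catenins, had 84.5 ± 2.29 CPM with dexamethasone and 38.9 ± 0.772 CPM in controls (log2 1.12 ± 0.03, adjusted p = 6.4e-27). Ctnnd2, delta catenin of the p120 family, had 27.9 ± 0.573 CPM with dexamethasone and 62.0 ± 0.384 CPM in controls (log2 -1.15 ± 0.02, adjusted p = 1.7e-25). Afdn, which encodes afadin and ties nectins to actin, had 195 ± 7.04 CPM with dexamethasone and 300.3 ± 8.04 CPM in controls (log2 -0.62 ± 0.04, adjusted p = 2.6e-22). The core catenin genes, named after their values were seen, differed among themselves. Ctnnb1, beta catenin, was not called, at 212 ± 10.2 CPM with dexamethasone and 213 ± 3.93 CPM in controls (adjusted p = 0.775). Ctnna1, alpha catenin, and Ctnnd1, p120 catenin, were lower (log2 -0.42 and -0.39), and Jup, plakoglobin, was higher (log2 0.61).

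Of 23 cadherin superfamily genes in the table that the symbol rule leaves out, 10 were tested, with no higher and 3 lower calls. Dchs1, a giant cadherin of planar cell polarity, had 11.9 ± 0.816 CPM with dexamethasone and 59.1 ± 2.69 CPM in controls, the largest fall of the list (log2 -2.32 ± 0.07, adjusted p = 2.6e-33). Fat4, the known partner of Dchs1, had 17.7 ± 1.02 CPM with dexamethasone and 19.5 ± 0.678 CPM in controls and was not called (adjusted p = 0.0761). Cdhr1, a photoreceptor cadherin, and Fat3 were lower (log2 -1.39 and -1.11). Fat1, at 425 ± 13.4 CPM with dexamethasone and 419 ± 7.83 CPM in controls, was not called (adjusted p = 0.511). The desmosomal cadherins Dsc1 to Dsc3 and Dsg1 to Dsg4 had at most 10 counts a group and were not tested.

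All 10 genes of cadherin shedding and of gamma-secretase, the protease that cuts cadherin stubs in the membrane, were tested, with 5 higher, 3 lower and a median of 0.21. The metalloproteases Adam9 and Adam15 rose (log2 0.73 and 1.11), as did Psen2, a presenilin (log2 0.37). Adam10, the main sheddase of N-cadherin, had 118 ± 5.24 CPM with dexamethasone and 125 ± 4.00 CPM in controls (log2 -0.08 ± 0.05, adjusted p = 0.0325), and the groups overlapped. Of 15 transcription factors linked to the switch between E-cadherin and N-cadherin, 11 were tested, with 3 higher, 3 lower and a median of 0.06. Twist2 and Snai1 fell, Twist2 to 1.70 ± 0.455 CPM with dexamethasone against 6.38 ± 0.766 CPM in controls (log2 -1.91), and Snai1 to 2.18 ± 0.339 CPM against 5.82 ± 0.294 CPM in controls (log2 -1.42). Snai2 rose to 48.0 ± 2.27 CPM against 36.1 ± 1.2 CPM in controls (log2 0.41). The 14 regulators of clustered protocadherin promoters, which include CTCF, cohesin and the repressor REST, were all tested, with 5 higher, 6 lower and a median of -0.07. Rest fell (log2 -0.52), Smc3, a cohesin subunit, rose (0.31), and Stag1, another cohesin subunit, fell (-0.31). Ctcf, whose protein anchors the promoter loops of the cluster, was lower (log2 -0.25, adjusted p = 1.4e-09), a value named after it was seen. Against the backgrounds of 32.3% higher and 31.7% lower calls, these lists contain calls in both directions except the superfamily list.

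**Figure D5:**
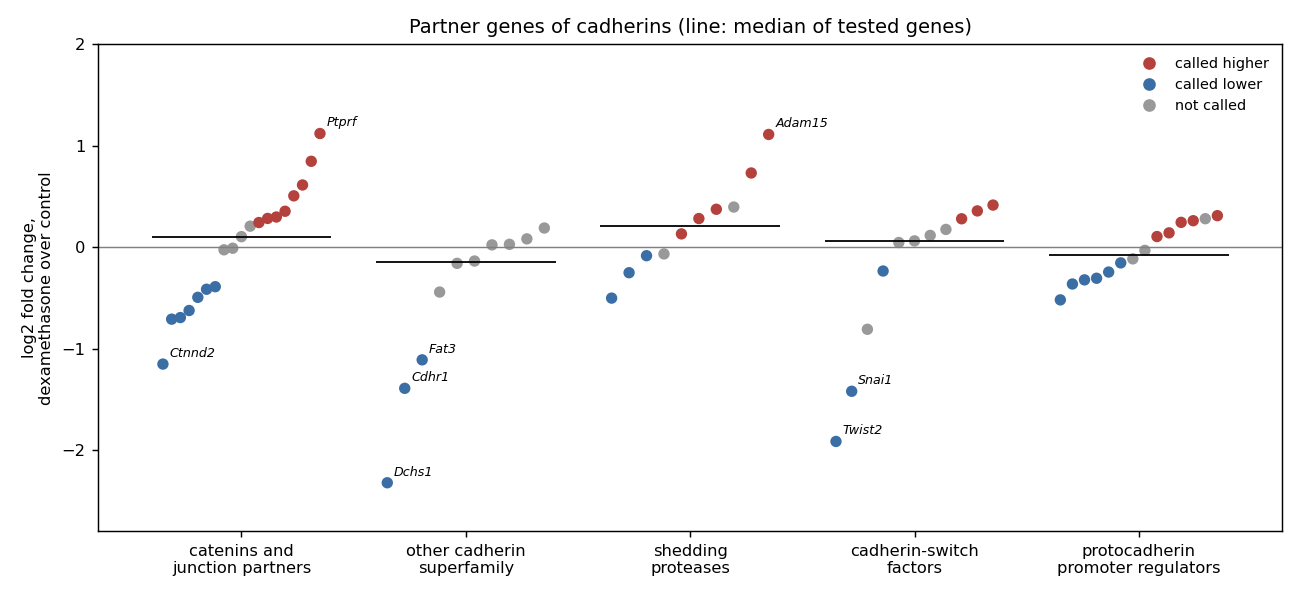
Log2 fold change (y axis, dexamethasone over control) of the tested genes in 5 partner lists, ordered within each list, with a line at the list's median; red marks genes called higher, blue lower and grey not called. Dchs1 is the lowest point at -2.32 and the medians lie between -0.15 and 0.21.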

How the data were processed

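Per the labels' protocols, total RNA was made into libraries with a SMARTER mRNA-seq kit. The values the authors deposited are raw read counts per gene, with summed exon lengths and exon coordinates per the file headers. The labels and file headers name no aligner, counter, strand setting or multi-mapping rule. The submitters' processing notes name mm10, a mouse build, but the table holds rat symbols: 66 of the 71 members were in a RefSeq gene table (GRCr8), all 66 on the same chromosome. Coordinates are as the table gives them.

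The filter filterByExpr kept 14111 genes. TMM factors and a robust quasi-likelihood test without covariates came from edgeR 4.0.16, run in R 4.3.3, with Benjamini-Hochberg adjustment. SEs come from log2 CPM with a prior count of 2. They reflect only the spread between the libraries of each group and can be smaller than counting error. Of values from 1 to 20, 70.3% were even, against 50.6% from 1000 up, so the floor was set at 6 counts, or 3 read pairs. Intervals and floors cover counting error only. Alternatives used DESeq2 1.42.0 and limma 3.58.1. The test was checked on simulated data. Of 50 genes changed at each fold, 17 were recovered at 1.2-fold, 34 at 1.5-fold, 45 at 2-fold and 50 at 4-fold. Only those genes were changed among 14111, whereas 64.0% of tested genes were called in the data. The adjustment was therefore stricter in the simulation, and the recovery does not give the power of the test in these data.

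Members, lists and tests were chosen with earlier results of these data known. Named genes were all tested members, with values per library for called members of at least 2 CPM and for Cdh1, Cdh2, Cdh5, Cdh11 and Pcdhgc3, and the 3 called genes of each list with the smallest p. Ctnnb1, Ctnna1, Ctnnd1, Jup, Fat1, Fat4, Adam10, Ctcf and the marker genes were named after their values were seen. No library pair in a group agreed within sampling noise (chi-square per degree of freedom 1.38 to 2.15, on counts halved to read pairs). No sequence is shown, as none was used here.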

Additional observations from a re-analysis of the deposited data

How the results depend on the processing

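The calls were recomputed under 16 other settings. With the coefficient of variation set to 0.2 in place of the 3.66% estimated from these replicates, 3 members were higher and 10 lower, of 3693 genes called. Against a fold change of 1.5, 2 members were higher and 4 lower, of 2827 genes called. Under the other settings the member counts stayed within 1.5 times those reported, with 5 to 8 higher and 13 to 18 lower. Leaving out 1 library at a time gave 5 to 7 higher, 13 to 18 lower and 8570 to 8757 genes called. Cdh11, Cdh18, Pcdh7, Pcdh18, Pcdhgb6 and Pcdhgb8 were called in the same direction under all 16, and were the members left against a fold change of 1.5. At a coefficient of variation of 0.2 the calls of Cdh13 (adjusted p = 0.391), Pcdha4 (0.561), Pcdha13 (0.256), Pcdhb19 (0.229), Pcdhga2 (0.399) and Pcdhga3 (0.180) were lost with those of 6 members whose calls other settings ended too, and so were those of Psen2, Rest, Smc3, Snai2 and Stag1. The gamma entries other than Pcdhgc3 had 8 lower calls under each of the 3 scalings, 5 with that coefficient and 2 against a fold of 1.5, and no higher call under any setting.

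The sign of the log2 fold change turned only for members that were not called. With library size alone, which shifts the median of all genes to 0.04, it was 0.0303 for Cdh15 and 0.00738 for Pcdhb22. With 1 library left out at a time, the log2 fold changes ran from -0.0394 to 0.0527 for Cdh2, -0.0695 to 0.0618 for Cdh15, -0.0684 to 0.267 for Cdh24, -0.153 to 0.635 for Pcdhb5, -0.218 to 0.112 for Pcdhb9, -0.303 to 0.0182 for Pcdhb20, -0.169 to 0.0592 for Pcdhb22, -0.165 to 0.460 for Pcdhga4, -0.241 to 0.0773 for Pcdhga6 and -0.597 to 0.137 for Pcdhgb4.

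Same-numbered libraries did not deviate together (correlations of 0.003, -0.008 and 0.020), so the numbers give no pairing from the data. With the replicate number as a block, 6 members were higher and 17 lower, of 8991 genes called. Counts halved to read pairs, a setting chosen after seeing the data, gave 7 higher and 18 lower, of 8870 called. Members under about 2 CPM rest on few reads, which limits what a missing call shows.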

Other observations

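The span of the clustered protocadherins also held entries that the symbol rule leaves out. RefSeq gives LOC108348201 the symbol Pcdhb15, a beta protocadherin, and it was called lower, at 0.350 CPM with dexamethasone and 0.697 CPM in controls (log2 -0.97, adjusted p = 0.0225, edgeR's quasi-likelihood test). RefSeq gives LOC108348771 the symbol Pcdhb16, and it was not called, at 1.78 CPM with dexamethasone and 1.61 CPM in controls (adjusted p = 0.578). AABR07031734.2, an entry with no other name in the files, lies between Pcdhga4 and Pcdhga5 on the same strand as the gamma genes. It had 12.4, 11.4 and 12.7 CPM with dexamethasone and 16.8, 19.4 and 16.8 CPM in controls, and was called lower (log2 -0.54 ± 0.08, adjusted p = 7.6e-08). Taf7, which encodes a subunit of a general transcription factor and lies between the beta and gamma sets on the opposite strand, had 115 CPM with dexamethasone and 119 CPM in controls and was not called (adjusted p = 0.154).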
